A study of Mus musculus with 24 samples.

Results

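Immediate early genes are the genes whose transcription starts first after a neuron is stimulated. They include transcription factors such as Fos and Egr1 and proteins that act directly at the synapse, such as Arc, and they form a standard readout of recent neuronal activity. The list described here holds 43 such genes and other activity-regulated genes of the mouse, chosen by name from the 36528 genes listed for each library. Of the 43, 39 passed the filter on low counts and were tested. The other 4 (Klf2, Klf4, Maff and Dusp5) had too few reads.

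Neurons of adult mouse cortex were profiled by bulk RNA-seq in 24 libraries, 6 for each of the subtypes labelled EXC, PV, SST and VIP. Every library, whatever its subtype, came from tissue digested with papain, and live cells were sorted as DAPI-negative and positive for GFP or tdTomato, depending on the reporter line. The libraries comprised 2 female and 4 male EXC, 3 female and 3 male PV, 2 female and 4 male SST, and 4 female and 2 male VIP samples. The sources used here do not give the driver behind each reporter, the age beyond adult, the time from dissection to sorting, or the number of animals per library, so a p-value here reflects variation among these libraries alone, part of which may be technical. No undissociated sample is among the libraries, so transcription before and after dissociation cannot be told apart.

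Library totals ran from 1548907 counts in a PV library to 15978459 in an SST library, and PV libraries were the shallowest group with a median of 2891329 counts. Reads of mitochondrially encoded genes took 14.4 to 52.9% of the counts in PV and 1.80 to 16.6% in the other subtypes. The defining markers followed the labels: the 6 excitatory markers summed to between 1818 and 5066 CPM (counts scaled to a common library size) in EXC and to at most 918 in the rest, while Pvalb, Sst, Vip and their companion markers led their own subtypes. EXC replicate 3 stood apart, with the lowest excitatory sum of its group and its highest sum of GABAergic markers (883 CPM, against 342 to 682 in the other EXC libraries). Markers of other cells were also present in EXC: oligodendrocyte markers reached 2982 CPM in replicate 6, and 5 dentate granule cell markers summed to between 277 and 613 CPM against at most 8.59 elsewhere. The 6 ciliated-cell markers summed to between 40.0 and 174 CPM in PV and to at most 1.69 elsewhere. Astrocyte markers summed to between 1124 and 1650 CPM in VIP, 239 to 345 in SST and 252 to 802 in PV, and reached 4280 in EXC replicate 6. Of the 10 astrocyte markers, 2 were called higher and 1 lower in VIP than in the mean of PV and SST. All PV and 5 EXC libraries were sequenced in 1 pool, 5 SST and 2 VIP libraries in another, and 4 VIP libraries with EXC replicate 3 in another, with the last SST library (replicate 5) alone, so subtype and pool were nearly the same split. The part of EXC replicate 3, of other cells and of pool in the results was not tested beyond the fits without single libraries, without EXC replicates 2 and 6, and with pool as a term.

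In neurons, calcium entry and cAMP activate kinases that phosphorylate CREB and the serum response factor partners already bound at these promoters, which is why the first wave needs no new protein. The early transcription factors then switch on effectors that act at synapses, and phosphatases of the DUSP family and kinases such as Sik1 turn the signal down again. The cAMP response element, bound by CREB, is best known in its full palindromic form and as the core site TGACG.

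Promoter windows, the 250 bases before the start site in the RefSeq table of build GRCm38.p6, were available for 33 of the 43 genes. Arc, Crem, Dusp4, Egr1, Egr3, Ier2, Klf10, Nptx2, Sik1 and Trib1 had none. The 6 windows below belong to genes whose levels differed in different directions: Fos, Npas4 and Nr4a1 had their highest mean in VIP, Nr4a2 and Nr4a3 in EXC, and Dusp1 in PV. Capitals mark the core sites TGACG and CGTCA (its other strand), the full element in Dusp1, and TATAAA on either strand. Each sequence is written 5′ to 3′ on the strand of its gene.
Fos (chr12:85473640-85473889, plus strand): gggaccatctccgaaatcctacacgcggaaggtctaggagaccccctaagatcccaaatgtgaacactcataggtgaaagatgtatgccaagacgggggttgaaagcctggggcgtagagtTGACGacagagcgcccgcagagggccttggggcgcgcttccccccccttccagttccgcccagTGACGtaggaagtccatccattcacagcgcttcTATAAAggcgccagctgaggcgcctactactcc
Npas4 (chr19:4989972-4990221, minus strand): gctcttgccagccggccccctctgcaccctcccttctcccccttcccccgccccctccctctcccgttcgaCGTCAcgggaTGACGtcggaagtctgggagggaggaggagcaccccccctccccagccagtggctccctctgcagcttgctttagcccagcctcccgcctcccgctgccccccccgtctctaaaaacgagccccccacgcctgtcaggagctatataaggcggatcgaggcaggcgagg
Nr4a1 (chr15:101266596-101266845, plus strand): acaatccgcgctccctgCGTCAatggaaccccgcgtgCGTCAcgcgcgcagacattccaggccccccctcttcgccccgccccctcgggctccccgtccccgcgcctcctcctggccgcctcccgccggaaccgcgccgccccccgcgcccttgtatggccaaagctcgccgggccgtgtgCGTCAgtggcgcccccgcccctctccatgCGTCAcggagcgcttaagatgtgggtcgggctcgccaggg
Nr4a2 (chr2:57124004-57124253, minus strand): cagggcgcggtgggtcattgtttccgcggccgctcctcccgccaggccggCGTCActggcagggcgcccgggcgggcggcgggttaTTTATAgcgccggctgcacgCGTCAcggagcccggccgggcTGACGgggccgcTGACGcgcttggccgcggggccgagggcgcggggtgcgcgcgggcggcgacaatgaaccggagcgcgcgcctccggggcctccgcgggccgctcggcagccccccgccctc
Nr4a3 (chr4:48045055-48045304, plus strand): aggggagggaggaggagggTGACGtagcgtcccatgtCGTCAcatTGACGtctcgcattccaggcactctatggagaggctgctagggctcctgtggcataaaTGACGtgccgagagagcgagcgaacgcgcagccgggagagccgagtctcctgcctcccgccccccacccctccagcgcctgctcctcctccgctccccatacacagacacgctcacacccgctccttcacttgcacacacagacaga
Dusp1 (chr17:26508473-26508722, minus strand): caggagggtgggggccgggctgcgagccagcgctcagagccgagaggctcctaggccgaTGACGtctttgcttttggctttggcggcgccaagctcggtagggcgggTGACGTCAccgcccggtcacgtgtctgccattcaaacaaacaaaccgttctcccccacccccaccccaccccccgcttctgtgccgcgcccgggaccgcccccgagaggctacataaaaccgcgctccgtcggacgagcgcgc
For Npas4, Nr4a1 and Nr4a3 the start site in the table lies inside the annotated gene, so these windows belong to 1 of several possible starts. Fos and Npas4 held 2 core sites each, and each of the 3 NR4A windows held 4. The core site was found in 19 of the 33 windows (57.6%), against 17.9% of all 27025 windows of the same length. The full element TGACGTCA, which contains the core site on both strands, was found in Btg2 and Dusp1 only among the 33, against 1.62% of all windows. The AP-1 site TGANTCA was found in 0 of the 33 windows and in 6.87% of all windows, and TATAAA in 5 of the 33 windows (Fos, Gadd45b, Gadd45g, Inhba and Nr4a2) and in 13.0% of all. The serum response element was found in 1 of the 33 windows (Dusp5) and in 1.4% of all. The MEF2 element was found in 3 (Atf3, Jun and Klf2) and in 0.518% of all, and the EGR site in 0 and in 0.54%. Both strands were searched, and a match describes letters in a window, not binding. Sites further upstream and the genes without a window were not searched, so these shares do not cover the whole list.

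Across the list, the EXC libraries had the highest levels most often and the PV libraries the lowest. The highest subtype mean was in EXC for 24 of the 39 tested members, VIP for 10, PV for 3 and SST for 2, while 30.1, 28.3, 27.6 and 14.02% of all tested genes were highest in those subtypes. The lowest mean was in PV for 19, VIP for 11, SST for 5 and EXC for 4, while PV, VIP, SST and EXC were lowest for 32.9, 26.3, 15.7 and 25.2% of all tested genes. Levels depended on subtype for 33 of 39 members (edgeR quasi-likelihood test for any difference, adjusted p under 0.05), against 68.5% of all 14890 tested genes. The 6 that did not pass were Junb, Atf3, Nfil3, Ier2, Ier3 and Gadd45g.

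**Figure D1:**
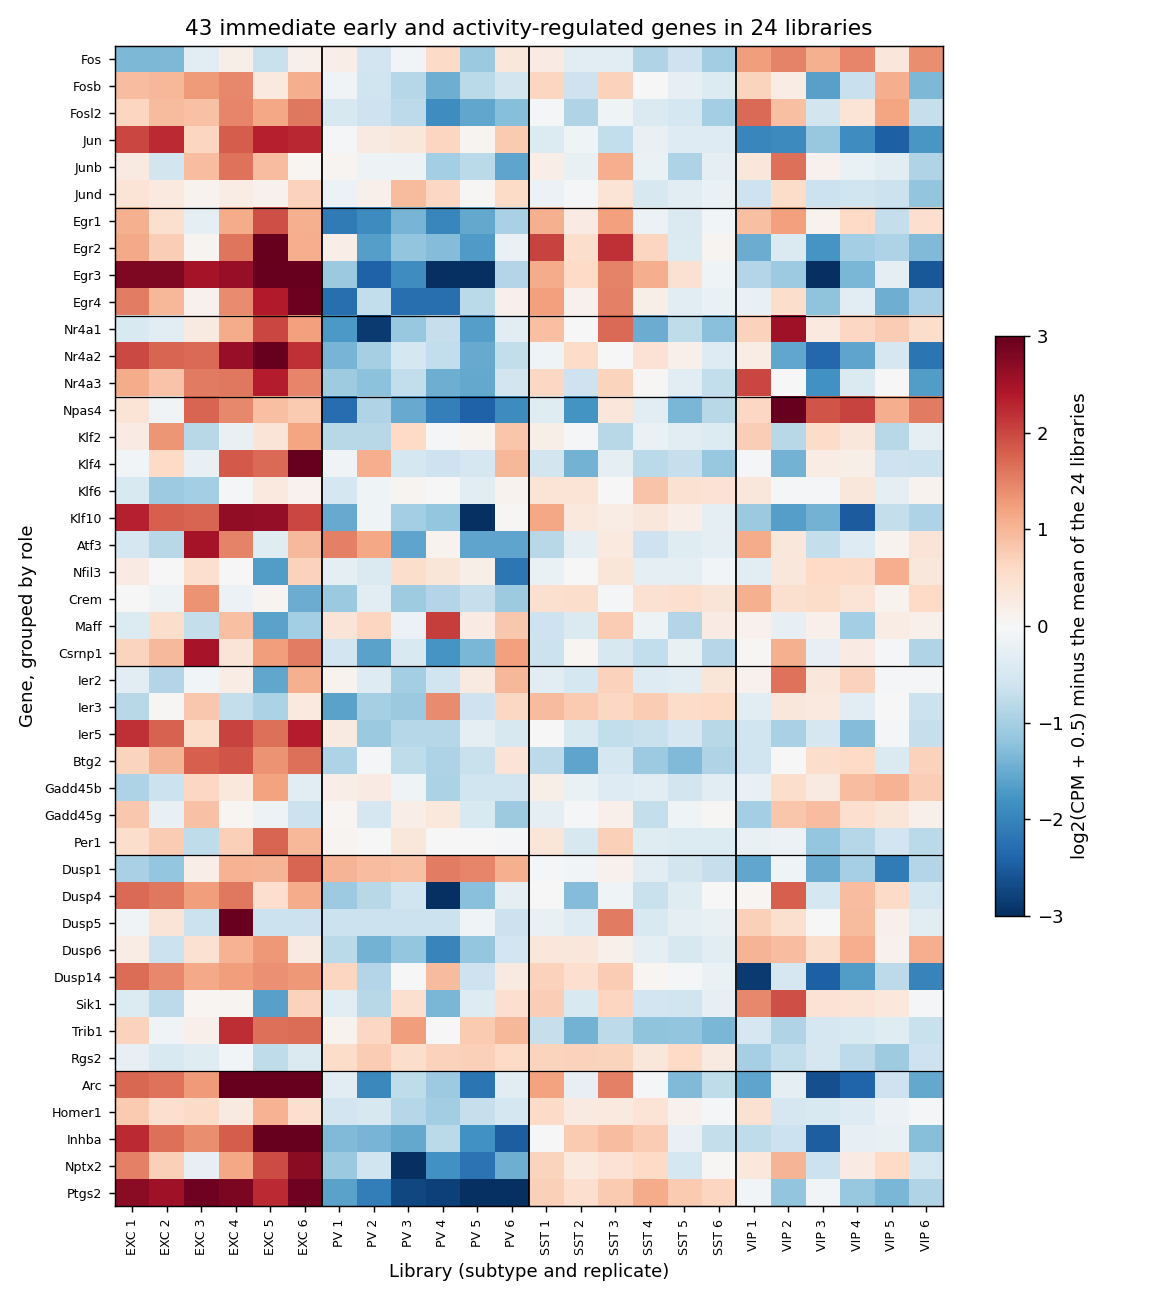
Level of each of the 43 genes (rows, grouped by role) in each of the 24 libraries (columns), as log2(CPM + 0.5) minus the gene's mean over all libraries. Red blocks lie mostly in the 6 EXC columns, for Egr3, Nr4a2, Klf10, Arc, Inhba and Ptgs2 among others, whereas Fos and Npas4 are red in VIP.

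Against the mean of PV, SST and VIP, 24 members were higher in EXC and 2 lower. Over all tested genes 24.5% were called higher and 18.1% lower. The median log2 difference was 1.25 over the members and 0.06 over all genes. In bulk libraries, more cells with a transcript and more transcript per cell cannot be told apart, and this holds for every difference below. A comparison of 1 subtype with several others is with their mean throughout, so a call need not hold against each. Where no partner is named for PV, SST or VIP, it is the mean of the other interneuron subtypes. With pool as a term in the fit, 14 of these 26 calls were kept, and only EXC replicate 3 ties that pool of PV and EXC to the others.

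Ratios between subtypes varied within each role, and no test compared roles. The median ratio of the highest to the lowest subtype mean was 17.4 for the 5 effectors (range 2.51 to 68.4) and 11.1 for the 4 EGR factors (6.31 to 27.2). It was 6.40 for the NR4A receptors, 5.36 for signalling feedback genes, 3.41 for other transcription factors, 3.38 for AP-1 factors (1.82 to 14.5) and 2.06 for early growth and clock regulators. These medians by role include the untested members: Dusp5 among feedback genes (ratio 29.0, on 1 read in PV), and Klf2, Klf4 and Maff among other transcription factors. All 39 tested members had a median ratio of 4.83, against 2.27 over all tested genes. By the stricter rule of at least 2-fold above each other subtype, 14 members were biased to EXC, against 5.18% of all genes: Jun, Egr3, Egr4, Nr4a2, Nr4a3, Klf10, Csrnp1, Ier5, Btg2, Dusp14, Arc, Inhba, Nptx2 and Ptgs2. The VIP subtype had 1 such member, Fos (4.33% of all genes). With the pool term these counts were 5 in EXC and 0 in VIP. PV had 0 (3.36%) and SST 0 (1%) by edgeR, and these counts were also 0 at an unadjusted p under 0.05 and by DESeq2. All 6 EXC libraries lay above all others for 7 members (Egr3, Nr4a2, Klf10, Ier5, Dusp14, Inhba and Ptgs2), against 4.2% of all genes. No member did so in PV, SST or VIP, where 4.01, 1.13 and 2.25% of all genes did.

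**Figure D2:**
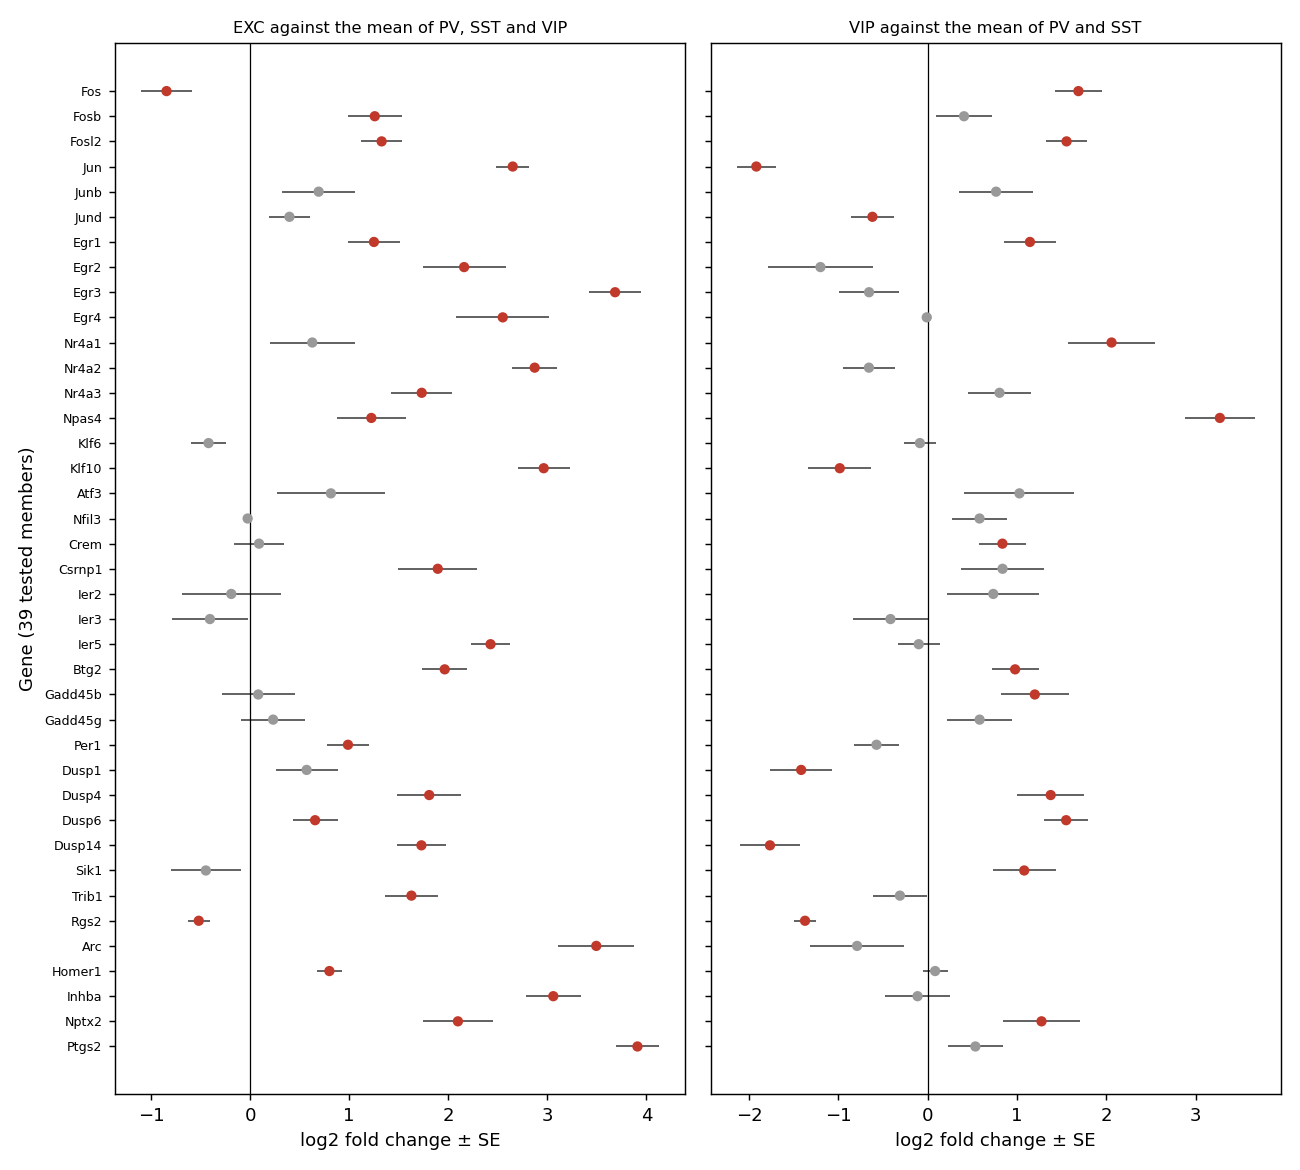
Log2 fold change ± SE of the 39 tested members for EXC against the mean of PV, SST and VIP (left) and VIP against the mean of PV and SST (right), with adjusted p under 0.05 in red and a bar left out where the unadjusted p is above 0.9. Most members lie right of 0 in EXC and Fos and Rgs2 left of it, while Fos, Npas4 and Nr4a1 lie right of 0 and Jun and Dusp14 left of it in VIP.

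AP-1 is a dimer of a Fos-family and a Jun-family protein. In the AP-1 group, 3 of 6 members were higher and 1 lower in EXC, against 24.5 and 18.1% of all genes, and 2 were higher and 2 lower in VIP than in PV and SST, against 25.8 and 20.5%. Fos (NCBI Gene 14281, chr12:85473890-85477274), the most used marker of recent activity, ran from 18.2 to 40.7 CPM in VIP with a median of 36.3. It ran from 5.28 to 16.2 CPM in EXC (median 10.03), from 6.33 to 21.5 in PV (median 14.9) and from 6.64 to 17.1 in SST (median 10.3). Every VIP library but replicate 5 was above all libraries of the other subtypes, and replicate 5 lay below the highest PV library. Against PV and SST the log2 difference was 1.69 ± 0.26 (SE; adjusted p = 1.07e-05), and Fos was lower in EXC than in the others, with a log2 difference of -0.84 ± 0.26 (adjusted p = 0.0101). With the pool term the EXC difference was -1.01 and not called. Against PV alone or SST alone, Fos was not called lower in EXC, and the EXC and SST levels were close.

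Jun, which pairs with Fos, was highest in EXC and lowest in VIP. Fos had its highest mean in VIP and its lowest in EXC, close to that of SST. Jun ran from 48.0 to 156 CPM in EXC (median 133), 29.1 to 52.6 in PV (median 37.6), 17.8 to 27.5 in SST (median 23.1) and 5.15 to 13.5 in VIP (median 7.78). Groups other than EXC and PV did not overlap, and EXC overlapped PV only through EXC replicate 3, whose 48.0 CPM was its lowest by far. The log2 difference was 2.65 ± 0.17 in EXC (adjusted p = 5.08e-13) and -1.92 ± 0.22 in VIP against PV and SST (adjusted p = 1.08e-07). Fosl2, a Fos relative, ran from 83.0 to 158 CPM in EXC (median 109.7), 14.1 to 37.4 in PV (median 25.8), 25.6 to 51.3 in SST (median 37.6) and 32.6 to 171 in VIP (median 84.1), so EXC was above PV and SST throughout and overlapped VIP. Fosl2 was higher in EXC by 1.33 ± 0.21 (adjusted p = 8.74e-06) and in VIP against PV and SST by 1.55 ± 0.23 (adjusted p = 5.23e-06).

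Fosb, another Fos relative, ran from 10.05 to 22.5 CPM in EXC (median 17.1), 2.59 to 7.47 in PV (median 4.76), 5.07 to 13.4 in SST (median 7.34) and 2.27 to 17.7 in VIP (median 7.15). Its EXC difference was 1.26 ± 0.27 (adjusted p = 0.000514), and 1.03, not called, with the pool term. Junb and Jund, the remaining Jun proteins, showed little separation. Junb ran from 2.72 to 14.2 CPM in EXC (median 6.83), 1.07 to 4.48 in PV (median 2.97), 1.996 to 9.50 in SST (median 3.58) and 2.04 to 14.3 in VIP (median 4.16), with overlap between all groups and no call in the comparisons with a mean. Jund ran from 13.5 to 20.8 CPM in EXC (median 15.2), 11.2 to 24.7 in PV (median 16.7), 8.83 to 16.9 in SST (median 10.97) and 5.27 to 18.8 in VIP (median 7.94). Jund was called higher in PV (0.71 ± 0.23, adjusted p = 0.0155) and lower in VIP (-0.62 ± 0.24, adjusted p = 0.0368). The PV call was lost without PV replicate 3 or 4 (adjusted p up to 0.0732) and the VIP call without PV replicate 3 or 6, SST replicate 3 or any VIP library but replicate 2 (adjusted p up to 0.109). Both were also lost with the pool term (0.21 in PV and -0.55 in VIP).

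EGR zinc-finger factors, which bind GC-rich sites, were called higher in EXC for all 4 members, against 24.5% of all genes. All 4 were also called higher in SST than in the mean of PV and VIP, against 11.2%. With the pool term the EXC call was kept for Egr3 and lost for Egr1 (0.30), Egr2 (0.15) and Egr4 (0.80), and the 4 SST calls were kept. Against VIP alone, only 2 of the 4 were called higher in SST. Egr1 was the most abundant member per transcript length in EXC, SST and VIP, with median RPKM of 67.2, 33.3 and 48.4, and 9.51 in PV. In CPM it ran from 141 to 650.2 in EXC (median 355), 126 to 400.0 in SST (median 179.6), 102 to 398 in VIP (median 247) and 38.1 to 85.9 in PV (median 51.2). All PV libraries lay below every other library. Egr1 was lower in PV than in SST and VIP, with a log2 difference of -2.12 ± 0.33 (adjusted p = 1.12e-05) and higher in EXC by 1.25 ± 0.26 (adjusted p = 0.000355). Its EXC libraries overlapped those of SST and VIP, and Egr1 was not called higher in EXC than in SST alone. With the pool term, which links PV to SST and VIP only through EXC replicate 3, the PV difference was -3.74 and still called. The SST call (0.98 ± 0.31, adjusted p = 0.0243) was lost without PV replicate 1 or 2 or SST replicate 1 or 3 (adjusted p up to 0.0713).

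Egr3, a factor of longer-lasting responses, ran from 227 to 408 CPM in EXC (median 279.8), 36.3 to 112 in SST (median 72.6), 4.40 to 32.6 in VIP (median 16.7) and 4.07 to 21.5 in PV (median 8.76). The EXC group lay above all others, SST above PV and VIP, and PV and VIP overlapped. The log2 difference was 3.68 ± 0.27 in EXC (adjusted p = 8.22e-12) and 2.45 ± 0.31 in SST against PV and VIP (adjusted p = 1.02e-06). Egr2 and Egr4 were low, with EXC medians of 6.12 and 6.19 CPM and PV medians of 0.789 and 0.437, and only 13 and 8 reads were counted over the 6 PV libraries. The SST call of Egr4 (1.73 ± 0.58, adjusted p = 0.0356) was lost without PV replicate 1, 3 or 4, SST replicate 1, 3 or 4, or VIP replicate 5 (adjusted p up to 0.0803).

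NR4A factors are orphan nuclear receptors induced without a ligand. The members split: Nr4a2 and Nr4a3 were highest in EXC, and Nr4a1 was high in EXC and VIP. Nr4a2 ran from 55.0 to 138 CPM in EXC (median 71.7), 5.46 to 11.3 in PV (median 8.79), 12.5 to 24.5 in SST (median 17.4) and 2.80 to 19.4 in VIP (median 5.22), so every EXC library was above all others, with a difference of 2.87 ± 0.23 (adjusted p = 5.4e-11). Nr4a3 ran from 34.9 to 100.4 CPM in EXC (median 55.4), 6.33 to 12.9 in PV (median 8.47), 11.3 to 30.6 in SST (median 17.4) and 5.06 to 78.9 in VIP (median 16.6), and EXC was higher by 1.73 ± 0.31 (adjusted p = 4.06e-05). VIP replicate 1, at 78.9 CPM, was inside the EXC range.

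Nr4a1 ran from 9.76 to 55.9 CPM in EXC (median 23.0), 16.7 to 81.1 in VIP (median 21.6), 4.48 to 45.3 in SST (median 10.7) and 1.41 to 10.7 in PV (median 4.90). The order of the medians was EXC, VIP, SST, PV, but EXC and VIP overlapped, as did SST with each of the others. It was not called in EXC (0.63 ± 0.43, adjusted p = 0.253). Against PV and SST it was higher in VIP by 2.06 ± 0.49 (adjusted p = 0.00125); without VIP replicate 2, at 81.1 CPM, the difference was 1.45. It was lower in PV, with a log2 difference of -2.02 ± 0.55 (adjusted p = 0.00434). With the pool term, which links PV to SST and VIP only through EXC replicate 3, the difference was -3.90 and still called.

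Npas4 is a neuron-specific activity factor that responds to calcium entry. It ran from 14.4 to 82.6 CPM in VIP (median 31.8), 8.51 to 32.4 in EXC (median 16.9), 2.31 to 11.7 in SST (median 5.98) and 1.31 to 4.69 in PV (median 1.998), with VIP above SST and PV throughout. In PV only 32 reads were counted over 6 libraries. Npas4 was higher in VIP than in PV and SST by 3.27 ± 0.39 (adjusted p = 1.73e-07). It was also higher in EXC than in the mean of the others, by 1.22 ± 0.35 (adjusted p = 0.00548). With the pool term the differences were 2.56 and 1.30, both still called.

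**Figure D3:**
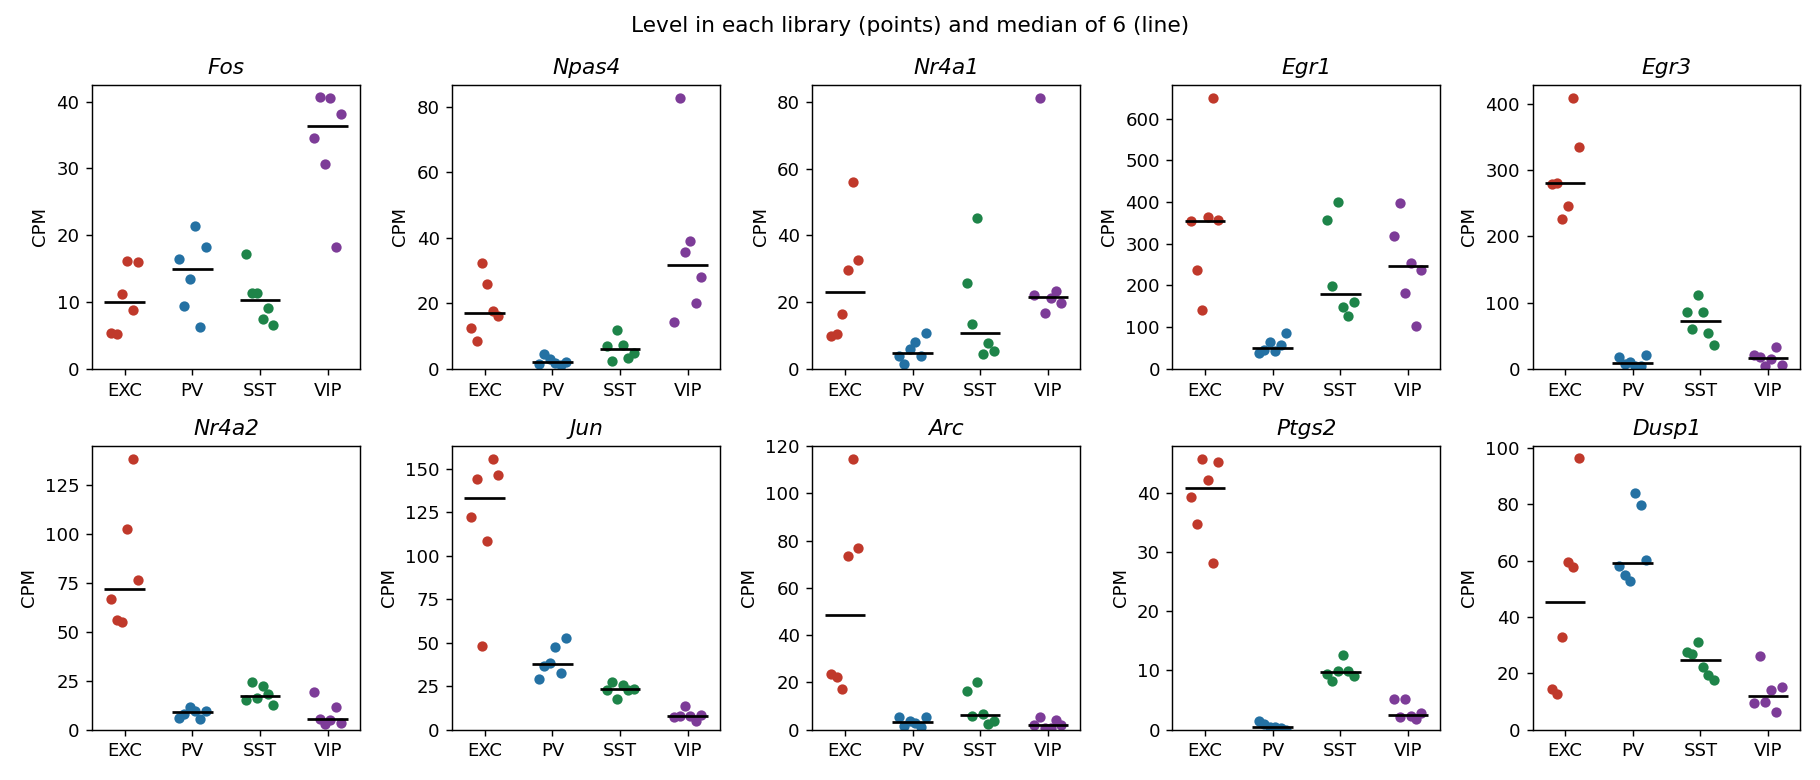
CPM in each of the 6 libraries of a subtype (points) with the group median (line) for 10 members. Fos is highest in VIP, Egr3, Nr4a2 and Ptgs2 in EXC, and Dusp1 is high in PV and in 3 of 6 EXC libraries.

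Among the other transcription factors, 3 of 7 tested were higher in EXC (Npas4, Klf10 and Csrnp1), against 24.5% of all genes. Klf10, a Krüppel-like repressor, ran from 25.4 to 48.7 CPM in EXC (median 34.7), 0.437 to 7.51 in PV (median 3.16), 5.88 to 16.7 in SST (median 8.93) and 0.880 to 4.23 in VIP (median 2.75), with EXC above all other libraries (2.96 ± 0.26, adjusted p = 4.38e-10). Crem, a cAMP-responsive factor that includes repressor isoforms, ran from 3.91 to 31.3 CPM in EXC (median 11.4), 5.23 to 9.37 in PV (median 5.87), 11.6 to 17.3 in SST (median 16.7) and 12.9 to 25.4 in VIP (median 17.2). It was lower in PV than in SST and VIP, with a log2 difference of -1.35 ± 0.30 (adjusted p = 0.00076), and this value turned to 0.65 with the pool term, no longer called. Crem was called higher in VIP (0.84 ± 0.26, adjusted p = 0.0116), but not without VIP replicate 1 (adjusted p = 0.0608), and the difference was 0.01 with the pool term. Klf2, Klf4, Atf3, Maff, Nfil3, Csrnp1 and Klf6 are given by ranges: medians by subtype ran from 0.234 CPM (Klf2 in SST) to 121 (Klf6 in SST), and Klf6, a growth and injury factor, was among the steadiest, with an SD of log2 CPM of 0.37.

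Of the early growth and clock regulators, Ier5, Btg2 and Per1 were higher in EXC among 7 tested, against 24.5% of all genes. Ier5, an early regulator of phosphatase activity, ran from 30.9 to 109.9 CPM in EXC (median 80.4), 9.37 to 25.4 in PV (median 13.2), 11.5 to 21.3 in SST (median 13.9) and 8.30 to 20.6 in VIP (median 13.3). EXC lay above all others, and the 3 interneuron groups overlapped; the difference was 2.43 ± 0.19 (adjusted p = 6.04e-11). Btg2, an antiproliferative co-regulator, ran from 16.6 to 39.8 CPM in EXC (median 30.4), 5.18 to 13.95 in PV (median 6.10), 3.11 to 6.98 in SST (median 4.95) and 6.60 to 17.0 in VIP (median 12.7), and EXC was higher by 1.96 ± 0.23 (adjusted p = 7.87e-08). EXC and VIP overlapped for Btg2.

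Per1, a core clock repressor also induced by cAMP, ran from 21.8 to 126 CPM in EXC (median 62.6), 36.5 to 47.0 in PV (median 37.4), 26.8 to 61.3 in SST (median 28.6) and 16.4 to 33.1 in VIP (median 23.0). Its EXC difference was 0.99 ± 0.21 (adjusted p = 0.000474) and turned to -0.25 with the pool term. Ier2, Ier3, Gadd45b and Gadd45g were low, with medians between 0.993 and 5.65 CPM in every subtype. Of these only Gadd45b was called, higher in VIP by 1.20 ± 0.38 (adjusted p = 0.0115), and by 0.72, not called, with the pool term.

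Signalling feedback genes, which dampen the pathways that induce the list, went in several directions. Dusp1, a phosphatase that inactivates p38, JNK and ERK kinases, ran from 52.9 to 84.0 CPM in PV (median 59.2), 12.6 to 96.4 in EXC (median 45.3), 17.5 to 31.2 in SST (median 24.6) and 6.26 to 26.0 in VIP (median 11.97). All PV libraries were above all SST and VIP libraries, while EXC overlapped PV, SST and VIP. It was higher in PV by 1.85 ± 0.30 (adjusted p = 2.31e-05) and lower in VIP, with a log2 difference of -1.42 ± 0.35 (adjusted p = 0.00183); with the pool term the differences were 0.64 and -1.28, neither called.

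Rgs2, which accelerates GTP hydrolysis by G protein alpha subunits, was the most abundant member per length in PV (median RPKM 24.5). In CPM it ran from 115 to 134 in PV (median 124), 95.3 to 129 in SST (median 123), 46.5 to 75.1 in EXC (median 60.3) and 37.7 to 55.4 in VIP (median 46.6). PV and SST overlapped with each other and lay above all EXC and VIP libraries. Rgs2 was lower in VIP than in PV and SST, with a log2 difference of -1.37 ± 0.13 (adjusted p = 1.94e-09) and lower in EXC, with a log2 difference of -0.52 ± 0.11 (adjusted p = 0.000517). With the pool term the EXC difference was -0.48 and not called. Its SD of log2 CPM, 0.19, was the lowest of the tested members.

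Dusp6, a phosphatase for ERK, ran from 16.0 to 31.9 CPM in VIP (median 29.2), 9.19 to 36.8 in EXC (median 19.1), 10.4 to 18.7 in SST (median 14.1) and 3.33 to 9.66 in PV (median 6.31). The VIP group was higher than PV and SST by 1.55 ± 0.25 (adjusted p = 1.37e-05), and PV was lower, with a log2 difference of -1.65 ± 0.28 (adjusted p = 4.18e-05). The EXC call (0.66 ± 0.23, adjusted p = 0.0216) was lost without EXC replicate 4 or 5 or VIP replicate 5 (adjusted p up to 0.112) and was 0.41, not called, with the pool term. Dusp14 ran from 35.7 to 51.7 CPM in EXC (median 41.2), 8.44 to 31.1 in PV (median 17.6), 13.8 to 27.3 in SST (median 19.7) and 1.75 to 11.2 in VIP (median 4.12), with EXC above all others and a difference of 1.73 ± 0.25 (adjusted p = 2.45e-06). VIP was lower, with a log2 difference of -1.77 ± 0.33 (adjusted p = 0.000116). The EXC difference was 0.78, not called, with the pool term. Dusp14 in PV (0.79 ± 0.30, adjusted p = 0.038) lost its call in 11 of the fits without 1 library, with adjusted p from 0.0525 to 0.186, and turned to -0.73 with the pool term.

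Dusp4, a nuclear ERK phosphatase, ran from 7.80 to 18.7 CPM in EXC (median 15.3), 0 to 4.29 in PV (median 2.53), 1.87 to 5.36 in SST (median 4.48) and 3.59 to 19.8 in VIP (median 6.96), and EXC was higher by 1.81 ± 0.32 (adjusted p = 4.78e-05; 1.38 and not called with the pool term). Sik1, a salt-inducible kinase that restrains CREB coactivators, ran from 3.04 to 17.2 CPM in EXC (median 9.24), 3.70 to 15.0 in PV (median 8.04), 6.72 to 17.6 in SST (median 8.06) and 9.94 to 40.9 in VIP (median 14.2), and was higher in VIP by 1.08 ± 0.35 (adjusted p = 0.014). That call was lost without VIP replicate 1 or 2 (adjusted p up to 0.0704) and was 0.94, not called, with the pool term. Trib1, a pseudokinase, ran from 5.79 to 30.9 CPM in EXC (median 15.5), 6.29 to 15.5 in PV (median 10.5), 2.04 to 3.71 in SST (median 2.43) and 3.13 to 4.78 in VIP (median 4.27), so EXC and PV lay above SST and VIP throughout. It was higher in EXC by 1.63 ± 0.27 (adjusted p = 1.53e-05) and in PV by 1.68 ± 0.30 (adjusted p = 6.17e-05), and by 0.81 and 0.26, neither called, with the pool term. Dusp5 had medians of at most 0.478 CPM.

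All 5 effectors were higher in EXC, against 24.5% of all genes, and 4 of these calls were kept with the pool term. Arc (NCBI Gene 11838, chr15:74669081-74672570), whose protein removes AMPA receptors from synapses, ran from 17.3 to 115 CPM in EXC (median 48.5), 2.39 to 20.3 in SST (median 6.16), 1.09 to 5.37 in PV (median 3.37) and 0.666 to 5.48 in VIP (median 1.99). EXC replicate 3 was the lowest of its group, below the highest SST library. The EXC difference was 3.49 ± 0.39 (adjusted p = 2.77e-08), and 1.45 with the pool term, still called. Arc in SST (1.46 ± 0.47, adjusted p = 0.0274) was lost without PV replicate 2 or 4 or SST replicate 1, 3 or 4 (adjusted p up to 0.0773).

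Ptgs2 (NCBI Gene 19225, chr1:150100031-150108234), the inducible cyclooxygenase of prostaglandin synthesis, ran from 28.2 to 45.7 CPM in EXC (median 40.7), 8.18 to 12.6 in SST (median 9.67), 1.84 to 5.24 in VIP (median 2.51) and 0 to 1.49 in PV (median 0.395). The 4 groups did not overlap, in the order EXC, SST, VIP, PV, and only 7 reads were counted over the PV libraries. EXC was higher by 3.91 ± 0.22 (adjusted p = 5.06e-14). Inhba, which forms activin, ran from 22.2 to 82.9 CPM in EXC (median 35.3), 4.84 to 16.0 in SST (median 11.2), 1.07 to 6.99 in VIP (median 4.88) and 1.07 to 4.44 in PV (median 2.66), and EXC, above all others, was higher by 3.06 ± 0.28 (adjusted p = 6.71e-10).

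Nptx2, a pentraxin that clusters AMPA receptors, ran from 3.17 to 27.9 CPM in EXC (median 10.6), 2.53 to 6.43 in SST (median 5.07), 2.27 to 8.22 in VIP (median 4.75) and 0 to 2.34 in PV (median 0.906). EXC was higher by 2.10 ± 0.35 (adjusted p = 2.04e-05; 0.26 and not called with the pool term), and PV was lower, with a log2 difference of -2.42 ± 0.55 (adjusted p = 0.000936). The VIP call (1.27 ± 0.43, adjusted p = 0.0171) was lost without VIP replicate 2 (adjusted p = 0.052). Homer1, a postsynaptic scaffold with a short activity-induced isoform that these gene-level counts do not separate from the long ones, ran from 136 to 231 CPM in EXC (median 164), 109.7 to 169 in SST (median 137), 78.9 to 155 in VIP (median 92.7) and 54.0 to 80.1 in PV (median 72.4). EXC was higher by 0.80 ± 0.13 (adjusted p = 9.55e-06), and PV was lower, with a log2 difference of -0.76 ± 0.15 (adjusted p = 0.000198; -0.73 and not called with the pool term).

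PV differed from SST and VIP in both directions. Against SST and VIP, 6 members were higher in PV (Jun, Jund, Dusp1, Dusp14, Trib1 and Rgs2) and 13 lower, against 19.3 and 21.6% of all genes, with a median of -0.58 over the members and -0.08 over all genes. Of these 19 calls, 7 were kept with the pool term, none of them among the 6 higher. In SST, 12 members were higher than the mean of PV and VIP and 3 lower (Fos, Btg2 and Trib1), against 11.2 and 7.15% of all genes, with medians of 0.17 and 0.00. Not all of the 12 were above both subtypes, as the counts by pair below show. Of these 15 calls, 9 were kept with the pool term, none of them among the 3 lower. In VIP, 12 were higher than the mean of PV and SST and 6 lower (Jun, Jund, Klf10, Dusp1, Dusp14 and Rgs2), against 25.8 and 20.5%, with medians of 0.53 and 0.04. Of these 18 calls, 10 were kept with the pool term. These comparisons share libraries. Of the 6 excitatory markers, 4 were called higher in SST than in the mean of PV and VIP, with a median log2 difference of 1.35. In VIP, 5 of the 6 were called lower than in the mean of PV and SST, and 1 was called higher in PV. The part of this marker shift in the member calls was not tested.

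Pair by pair, 26 members were higher in EXC than in PV and 1 lower (25.6 and 20.3% of all genes), 20 and 2 against SST (21.3 and 17.1%), and 22 and 2 against VIP (20.7 and 18.4%). PV had 3 members higher and 13 lower than SST (11.4 and 14.9%), and 6 higher and 14 lower than VIP (21.9 and 26.7%). SST had 10 higher and 6 lower than VIP (14.6 and 16.7%). For EXC against PV, Crem (0.99 ± 0.33) was lost without EXC replicate 3 (adjusted p = 0.0877), Per1 in 8 and Junb in 17 of the 24 fits without 1 library. For SST against VIP, Arc was lost in 8 such fits, Gadd45b in 8 and Inhba in 6. With the pool term, Arc (2.88) and Inhba (2.10) were still called there and Gadd45b (-0.44) was not.

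Pools allowed 2 comparisons within a pool. Within the pool of PV and 5 EXC libraries, 24 of 35 tested members were higher in EXC and 1 (Rgs2) lower, against 23.9 and 21.8% of all genes tested there; Arc differed by 4.10 ± 0.40 (adjusted p = 2.76e-07), Egr3 by 5.06 ± 0.33 (adjusted p = 2.88e-09) and Fosb by 1.80 ± 0.33 (adjusted p = 0.000275). Within the pool of 5 SST and 2 VIP libraries, 11 of 40 were higher in SST and 5 lower (Fos, Fosl2, Npas4, Dusp6 and Sik1), against 20.6 and 21.2%. The log2 difference of SST from VIP there was -1.65 ± 0.25 for Fos (adjusted p = 0.00014), -1.79 ± 0.45 for Npas4 (adjusted p = 0.00653) and 2.78 ± 0.45 for Egr3 (adjusted p = 0.000269). PV shared a pool with neither SST nor VIP, so pool and subtype cannot be told apart for those pairs.

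Upstream signalling genes, a list of 30 kinases, phosphatases and transcription factors that feed the early response, gave 24 called higher in EXC and 6 that did not pass, with a median log2 difference of 1.07, against 24.5% called higher and a median of 0.06 over all genes. Camk2a, the calcium/calmodulin kinase of excitatory synapses, differed by 2.63 ± 0.20 (adjusted p = 2.65e-11) and Ppp3ca, a calcineurin subunit, by 2.45 ± 0.11 (adjusted p = 5.03e-16). Camk2a is also 1 of the 6 excitatory markers. Of 26 tested late activity-regulated genes, 13 were higher and 6 lower in EXC, against 24.5 and 18.1% of all genes. Bdnf, a neurotrophin, ran from 53.6 to 135 CPM in EXC and from 4.20 to 14.8 in SST, and reached at most 3.22 in PV and 2.58 in VIP, a difference of 5.71 ± 0.35 (adjusted p = 3.21e-13). Igf1 and Crh, which are also known as VIP-neuron genes, were highest in VIP, with medians of 1429 and 215 CPM.

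Spread between libraries of the same subtype was wider for these genes than for most. The SD of log2 CPM, pooled over subtypes, had a median of 0.709 over the members and 0.515 over all tested genes, and 31 of 39 members were above the median of all genes. The widest was Atf3, a stress and injury factor, with an SD of 1.26, and the next were Arc (1.06), Egr4 (1.05) and Nr4a1 (1.03). Atf3 and Egr4 had only 14 and 8 reads over the PV libraries. Members were not matched to all genes by level, and the part of counting noise was not tested. PV, the shallowest group, had a member median of 0.606 against 0.442 for all genes, whereas SST, the deepest, had 0.412 against 0.295.

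In each subtype 1 library led more members than any other of its group. SST replicate 3 was the highest of its group for 20 of 39, VIP replicate 2 for 18, PV replicate 6 for 15 and EXC replicate 5 for 14. They were the lowest of their groups for 3, 2, 6 and 8 members, and the same counts over all genes were not made. Their median log2 deviation from the group median was 0.45, 0.24, 0.21 and 0.23 over the members. Over all genes it was 0.01, -0.01, -0.02 and -0.01. EXC replicate 6 had a larger member deviation (0.26) than EXC replicate 5. These 4 libraries also had the highest summed excitatory markers of their groups, at 723, 918, 681 and 5066 CPM. PV replicate 6, SST replicate 3 and VIP replicate 2 had the lowest GABAergic marker sums of theirs. They were also the shallowest libraries of their groups, with 1548907, 5508099 and 4528457 counts, whereas EXC replicate 5 (7603122) was not. PV replicate 6 had the highest mitochondrial share, 52.9%. The part of other cells, of depth and of mitochondrial share in these members' levels was not tested. Within the groups, the sum of 25 heat-shock and stress genes was highest in SST replicate 5, VIP replicate 4, PV replicate 3 and EXC replicate 5. The part of stress from dissociation in the members' levels was not tested. Levels of that sum ran from 3229 to 3618 CPM in PV, 2462 to 3169 in SST, 1562 to 3219 in EXC and 1704 to 2052 in VIP.

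**Figure D4:**
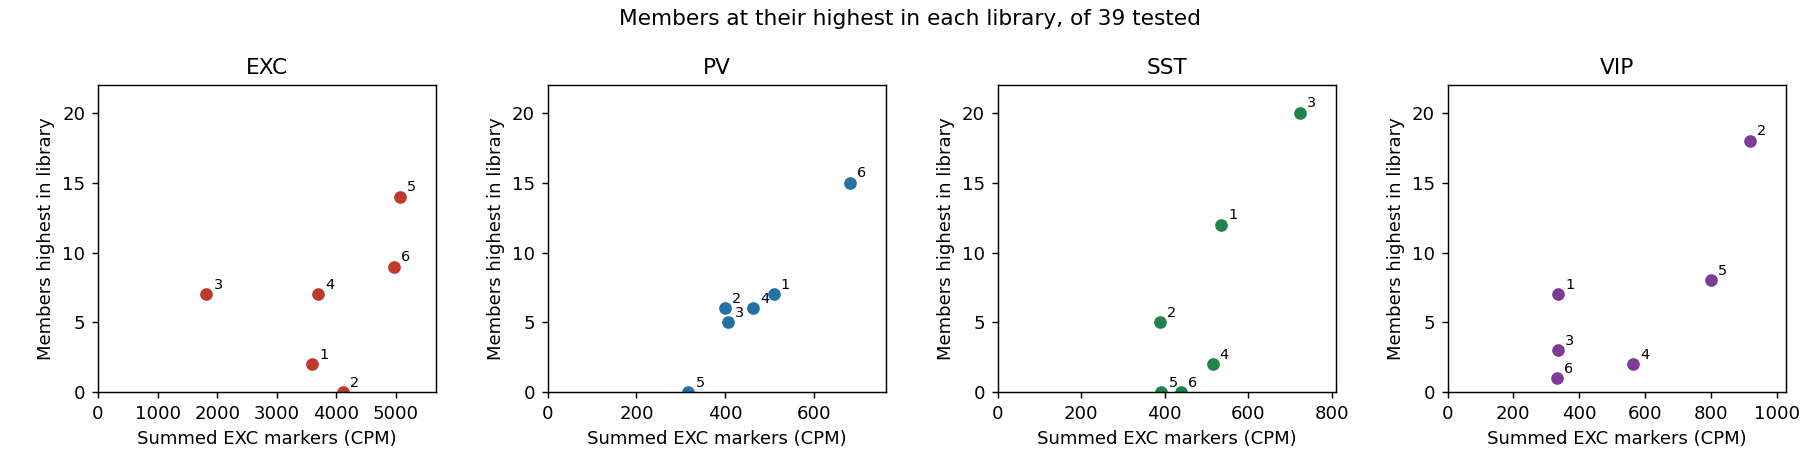
For each library (points, numbered by replicate) the number of the 39 tested members that are highest there within its subtype, against the summed CPM of 6 excitatory markers. In every subtype the library with the most leading members is also the one furthest right.

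Sex gave no call among the members: 0 of 39 passed for female against male and 0 for subtype by sex (edgeR, adjusted p), against 0.0403 and 0% of all genes. At an unadjusted p under 0.05 there were 7 and 9 members, and the share of all genes there was not computed. The 7 (Arc, Atf3, Fos, Fosb, Fosl2, Nr4a2 and Nr4a3) were all lower in females.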

How the data were processed

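Per the submitters' processing notes, the authors aligned reads with GSNAP to GRCm38; the sources used here give no version, counter, annotation or strand setting. The deposited counts are whole numbers of reads per gene. The deposited RPKM values were scaled by the authors with size factors, and were used only to compare levels between genes. NCBI Gene numbers were matched to symbols in RefSeq for 31049 of 36528 genes, including all 43 members.

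Counts were filtered by subtype and scaled by TMM, and 14890 genes were tested with edgeR 4.0.16 (quasi-likelihood test, R 4.3.3) in 1 fit over 24 libraries with sex as a covariate. Adjusted p is Benjamini-Hochberg over all genes tested, with a threshold of 0.05. CPM (counts scaled to the TMM-adjusted library size) are given throughout; SDs use log2 CPM with a prior count of 2. SE is the log2 difference over the root of F.

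Values in every subtype are given for members called in a comparison with a mean that averaged at least 10 CPM in their highest subtype, and always for Fos, Egr1, Arc, Npas4, Junb and Jund. Members and lists were chosen with earlier results of these data known. Alternatives were other scalings, filters, DESeq2 1.42.0, thinning, a pool term, no sex term, and leaving out libraries. The test was tested on simulated data. Among 60 pairs of libraries of 1 subtype, the lowest chi-square per degree of freedom of their counts was 5.58, so none agreed within counting noise.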

Additional observations from a re-analysis of the deposited data

Results flagged for a closer look

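A single library stood apart from the other 5 of its group in 7 of the 116 member-by-subtype groups examined, and chance gives about 1 in 20. In each, the gap to the nearest library was a larger share of the group's range on the log2 scale than Dixon's 95% critical value. Low outliers were Fos in VIP replicate 5 (18.2 CPM), Jun in EXC replicate 3 (48.0 CPM), Crem in SST replicate 3 (11.6 CPM) and Dusp4 in PV replicate 4 (0 CPM, in 1 of the shallower groups). High outliers were Jund in VIP replicate 2 (18.8 CPM), Nr4a1 in VIP replicate 2 (81.1 CPM) and Per1 in PV replicate 3 (47.0 CPM). EXC replicate 3 had the lowest excitatory marker sum of its group (1818 CPM) and VIP replicate 2 the highest of its own (918 CPM); their part in these values was not tested.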

How the results depend on the processing

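Calls of members were followed for the comparisons with a mean, EXC against PV and SST against VIP, and not for the other pairs. Of these 121 calls, 70 held under every alternative. With the pool term 43 were lost, 28 of them there only, and each fit without 1 library lost 1 to 9. Only EXC replicate 3 ties the pool of PV and EXC to the other pools, and the pool term shifted the median of all genes by -0.11, -0.18 and 0.11 (log2) in EXC, PV and SST. It gave 15 members higher and 1 lower in EXC, 0 higher in PV (835 genes higher and 1894 lower overall), 0 lower in SST, 7 higher and 3 lower in VIP (1567 and 1060 genes), and 5 members biased to EXC and 0 to VIP. It reversed Per1 in EXC (-0.25), Crem in PV (0.65) and Dusp14 in PV (-0.73). DESeq2 gave 1610 genes lower in SST and 2 members biased to VIP, and leaving out EXC replicate 3 and SST replicate 5, each the only library of its subtype in its pool, gave 2 members biased to VIP. Thinning gave 6 members higher in SST than VIP, the pool of SST and VIP alone 3386 genes higher, and a 4-fold rule 5 members biased to EXC and 0 to VIP. The cause was not tested.

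Leaving out each library in turn gave 23 to 27 members higher and 2 to 3 lower in EXC, 4 to 6 and 12 to 14 in PV, 9 to 14 and 2 to 3 in SST, 10 to 14 and 4 to 8 in VIP, 24 to 26 and 1 to 2 for EXC against PV, and 8 to 11 and 5 to 7 for SST against VIP. Any difference was called for 32 to 34 members, and 10 to 15 were biased to EXC and 1 to 2 to VIP. No paired analysis was possible because the labels carry no replicate numbers. PV libraries are shallow, which limits members with few reads there.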
